A study of Mus musculus with 35 samples.

Results

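Of 85740 regions in the mouse genome where KLF4 was found in at least 1 library, 4191 (4.89%) had a KLF4 peak in all 10 libraries, from day 3 of reprogramming to established embryonic stem cells. With only KLF4 peaks of q at most 0.01 the number was 1636. These 4191 sites, called constant sites here, are the subject of the report. They were found by merging every peak of the 10 KLF4 peak lists on chromosomes 1 to 19 and X wherever intervals shared 1 bp, and keeping the merged regions that a peak of each library overlapped. The sites were thus chosen by their KLF4 peaks, the measured values of this study, so their KLF4 values are given below as a description and without a test. Acetylation of histone H3 at lysine 27 (H3K27ac) took no part in the choice and was tested.

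KLF4 is a zinc-finger transcription factor that binds GC-rich DNA with a CACCC-type core, a sequence that other Kruppel-like and SP factors also recognise. It belongs to the factor set used to turn fibroblasts into pluripotent cells, and in embryonic stem cells it acts beside its relatives KLF2 and KLF5. It is also known from epithelial tissues, where it promotes differentiation, and from the control of cell division through Cdkn1a. H3K27ac marks active promoters and enhancers, and chromatin immunoprecipitation with sequencing (ChIP-seq) maps both the factor and the mark.

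The cells were mouse embryonic fibroblasts (MEF) from mice carrying at Col1a1 the OKSM cassette, which doxycycline switches on and which holds Myc, Sox2, Klf4 and Pou5f1, and the M2rtTA activator at Rosa26. The strain is labelled C57BL/6 crossed with a second strain, whose number changes from sample to sample in the labels and is therefore not given. For H3K27ac there were 2 libraries of such MEF without doxycycline, and none of MEF for KLF4. Reprogramming cells were kept in ESC medium with ascorbic acid at 50 µg/ml and doxycycline at 1 µg/ml, and were taken unsorted on day 3 and as SSEA1-sorted cells (a surface antigen of pluripotent cells) on days 6 and 9. H3K27ac had 3 libraries each for days 3 and 6 and 2 for day 9, and KLF4 had 2 on each of these days. The ESC reference was the V6.5 line, grown on irradiated feeder cells with serum and LIF, with 2 libraries for each protein. A further 2 KLF4 libraries came from ESC with 1 µM of a MEK inhibitor and 3 µM of a GSK3 inhibitor (the 2i condition). KLF4 at days 3 to 9 was thus measured with the cassette induced, and the labels name no cassette for the V6.5 line, so cassette and stage cannot be told apart. Between day 3 and days 6 and 9, sorting and stage cannot be told apart either.

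KLF4 lists held 21129 to 34640 peaks and H3K27ac lists 17493 to 88347, and the read depth behind them is unknown. A region without a peak is therefore not a region without signal. By the batch label, H3K27ac of day 9 was all EA-3702, that of MEF and ESC was all DG-3458, and days 3 and 6 each mixed 1 EA-3702 library with 2 of DG-3458. The median H3K27ac peak was 567 to 763 bp wide in batch EA-3702 and 382 to 554 bp in batch DG-3458. Of 8 fibroblast marker genes fixed for a check of the labels, all 8 had an H3K27ac peak in both MEF libraries, 5 to 7 on day 3, 2 or 3 on day 6, 3 on day 9 and 2 or 3 in ESC. Of 8 pluripotency markers, Sox2 alone had a peak in MEF, Pou5f1 alone on day 3, 1 or 2 markers had one at day 6, 6 at day 9 and all 8 in ESC.

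A few constant sites at gene starts are shown first as sequence, to let the letters of the KLF motif be seen in the bases that all 10 KLF4 peaks shared. They were picked among windows that carry the motif, which 37.4% of constant windows do, so they do not show how common it is. Arhgap28, Ass1, Klf13, Zfp42 and Cldn3 are described further below, and Ccne1, Dusp1 and Cdk4 were picked after their values were seen. Each line gives the bases before the start of transcription that lie inside the stretch common to the 10 peaks, 5′ to 3′ in the direction of the gene, from RefSeq's GRCm38.p6 (the assembly that mm10 names). Capitals mark every GGGNGTGG on either strand, read as CCACNCCC on the printed strand where the motif lies on the other.
Arhgap28 (chr17:68004109-68004358, minus strand): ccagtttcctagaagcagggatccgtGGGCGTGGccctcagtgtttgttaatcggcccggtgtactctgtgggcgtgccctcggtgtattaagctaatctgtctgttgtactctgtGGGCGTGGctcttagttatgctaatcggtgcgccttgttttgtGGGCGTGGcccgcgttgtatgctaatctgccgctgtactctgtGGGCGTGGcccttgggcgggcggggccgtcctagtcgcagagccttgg
Ass1 (chr2:31470020-31470269, plus strand): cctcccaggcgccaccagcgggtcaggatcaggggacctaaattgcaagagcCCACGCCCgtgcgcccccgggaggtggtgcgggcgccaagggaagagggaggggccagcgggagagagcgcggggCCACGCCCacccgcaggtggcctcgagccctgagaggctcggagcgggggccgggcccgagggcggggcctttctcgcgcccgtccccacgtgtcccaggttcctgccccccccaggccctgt
Klf13 (chr7:63938916-63939165, minus strand): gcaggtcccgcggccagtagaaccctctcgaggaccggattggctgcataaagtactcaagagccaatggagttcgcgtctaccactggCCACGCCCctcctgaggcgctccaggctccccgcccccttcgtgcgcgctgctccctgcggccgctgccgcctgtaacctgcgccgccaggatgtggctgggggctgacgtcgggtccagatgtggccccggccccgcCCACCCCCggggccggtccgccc
Zfp42 (chr8:43307011-43307236, minus strand): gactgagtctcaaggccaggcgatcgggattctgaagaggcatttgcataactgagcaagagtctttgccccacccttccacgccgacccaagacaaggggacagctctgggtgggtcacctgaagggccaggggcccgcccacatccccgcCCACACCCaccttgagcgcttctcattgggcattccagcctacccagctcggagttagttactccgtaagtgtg
Cldn3 (chr5:134985964-134986098, plus strand): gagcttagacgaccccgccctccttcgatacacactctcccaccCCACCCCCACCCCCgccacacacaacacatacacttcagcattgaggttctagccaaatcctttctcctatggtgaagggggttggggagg
Ccne1 (chr7:38107491-38107740, minus strand): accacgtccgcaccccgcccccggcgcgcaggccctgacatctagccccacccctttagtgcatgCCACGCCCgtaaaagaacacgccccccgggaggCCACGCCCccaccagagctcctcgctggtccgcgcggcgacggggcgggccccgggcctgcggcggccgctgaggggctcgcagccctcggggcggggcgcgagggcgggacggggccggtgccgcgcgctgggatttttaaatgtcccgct
Dusp1 (chr17:26508511-26508699, minus strand): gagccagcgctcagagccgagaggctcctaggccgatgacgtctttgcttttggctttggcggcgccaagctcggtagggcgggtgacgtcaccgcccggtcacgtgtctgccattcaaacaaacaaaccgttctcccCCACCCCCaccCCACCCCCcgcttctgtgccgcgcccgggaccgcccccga
Cdk4 (chr10:127063373-127063534, plus strand): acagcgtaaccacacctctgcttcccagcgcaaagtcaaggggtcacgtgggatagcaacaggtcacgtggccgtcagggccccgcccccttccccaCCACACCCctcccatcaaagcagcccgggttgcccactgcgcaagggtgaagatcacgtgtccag

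Arhgap28 had 4 such motifs in 250 bases, and its site ranked second of all constant sites. Ass1, the argininosuccinate synthase of arginine synthesis, and the factor gene Klf13 had 2 each. Zfp42 (Rex1), a marker of the pluripotent state, had 1 motif in 226 bases, and Cldn3, which codes for an epithelial tight-junction claudin, had 2 that overlap within 135 bases. The cell-cycle genes Ccne1 and Cdk4, for cyclin E1 and a cyclin-dependent kinase, had 2 and 1, and Dusp1, a phosphatase gene of the immediate-early response, had 2. A match of letters is a description and does not show where the factor touched DNA.

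The KLF-type letters were more common in gene-start windows with a constant site than in other windows of the same length. The window runs from 250 bases before to 50 bases after a start, and 21019 windows of protein-coding genes were searched on both strands. GGGNGTGG was in 37.4% of the 2526 windows that a constant site overlapped, in 29.2% of the 1125 windows with a region found in 9 of 10 libraries, and in 19.6% of all windows. Windows with any other KLF4 region held it in 23.1% of cases and windows without a KLF4 region in 12.6%. The SP-type GC box GGGCGGGG, which can share bases with GGGNGTGG where the motifs lie side by side, was in 56.4% of constant windows and 23.8% of all windows. Constant windows were also rich in G and C, with a median of 66.7% GC and 27 CpG against 56.7% and 13 over all windows. Windows with a region in 9 of 10 libraries were close to them. They held the GC box in 54.0% of cases and had medians of 65.0% GC and 25 CpG. Windows with any other KLF4 region stood at 36.8%, 62.3% and 22.

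Because GC content moves with motif content, the shares were read within bands of GC. Between 60% and 70% GC, GGGNGTGG was in 40.1% of 1151 constant windows and 25.02% of 4476 others, and between 50% and 60% GC in 33.6% of 438 and 19.3% of 6242. The GC box stood at 56.7% against 36.5% in the band from 60% to 70%. Other promoter letters were counted over all windows and not within bands of GC. CCAAT was in 33.2% of constant and 38.5% of all windows, TATAAA in 4.35% and 12.7%, the AP-1 letters TGANTCA in 3.48% and 7.04%, and the octamer ATGCAAAT of POU factors in 1.66% and 1.68%. The E-box CACGTG (12.2% against 7.91%), CCGGAAGT of ETS factors (7.76% against 5.20%) and GCGCATGC of NRF1 (6.25% against 3.54%) were above the share of all windows. In windows with a region in 9 of 10 libraries the shares were 10.5% for the E-box, 9.07% for ETS and 6.22% for NRF1. TATAAA was in 5.42% of them and the AP-1 letters in 3.64%. Windows with any other KLF4 region had 10.2%, 8.63%, 5.52%, 5.83% and 4.33% in the same order. These letters are thus not particular to constant windows. These shares carry no test, since the KLF4 lists chose the windows.

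Within a window the KLF-type letters lay in the stretch under all 10 peaks more often than beside it. In the 1203 constant windows where that stretch covered between 50 and 250 of the 300 bases, GGGNGTGG occurred 491 times in 173860 bp inside it and 234 times in 187040 bp outside, or 2.82 and 1.25 per kb. The GC box stood at 5.30 and 2.15 per kb. CCAAT occurred at 1.49 per kb inside and 1.46 outside, and TATAAA at 0.109 and 0.192. The other letters were also denser inside, at 0.385 and 0.262 per kb for NRF1, 0.569 and 0.444 for the E-box, 0.311 and 0.278 for ETS, 0.155 and 0.139 for AP-1 and 0.0690 and 0.0428 for the octamer, which occurred 12 and 8 times. GC content was 70.2% inside and 64.1% outside, and its part in the difference was not tested.

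Regions present in every library were wide and close to gene starts. Single-library regions were the most frequent class with 39317, the number fell to 2521 regions found in 9 libraries, and then rose to the 4191 constant sites. Median width was 831 bp for constant sites, 661 bp for regions in 9 libraries and 285 bp for all regions that were not constant; a merged region spans the peaks of all its lists, and the part of merging in these widths was not tested. Single peaks inside constant sites were wider than their lists in 10 of 10 libraries, with medians of 242 to 619.5 bp against 178 to 375 bp. The sites ran from 324 to 5495 bp. In 3704 of them (88.4%) the peaks of all 10 libraries shared at least 1 bp, with a median of 178 bp in common, whereas in the other 487 the region was held together by peaks that overlap in part. In 2056 sites (49.1%) each list contributed exactly 1 peak.

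**Figure D1:**
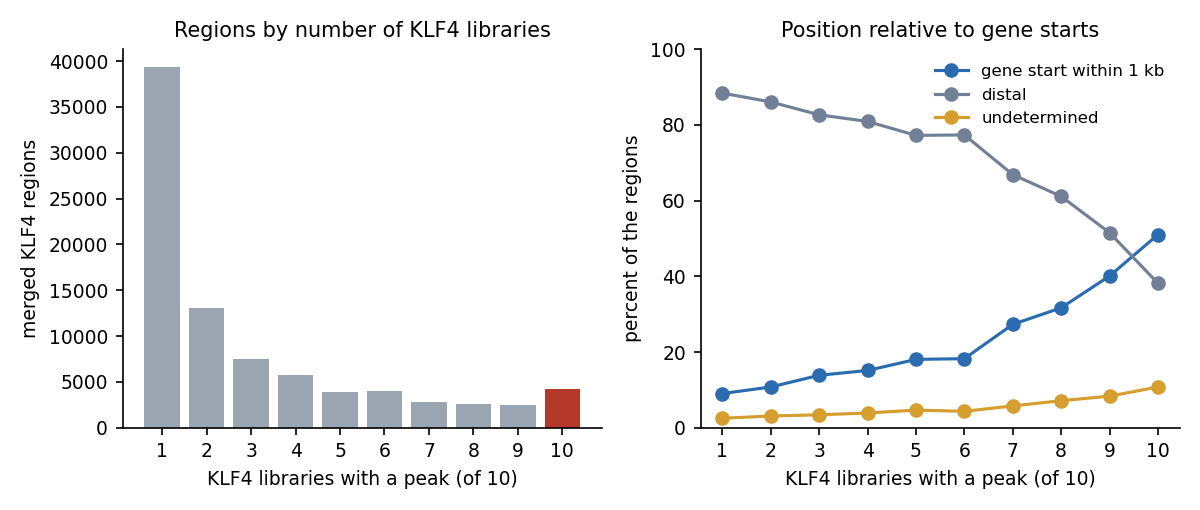
Left, number of merged KLF4 regions (vertical axis) found in 1 to 10 of the KLF4 libraries (horizontal axis), with the constant sites in red. Right, percent of the regions of each class that lie within 1 kb of a protein-coding gene start, lie distal, or could not be placed; the gene-start share runs from 9.06% of single-library regions to 51.0% of constant sites.

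A protein-coding gene start was within 1 kb of 2139 constant sites (51.0%), against 15.3% of all KLF4 regions. Another 1600 (38.2%) were distal, against 80.9% of all regions. The remaining 452 (10.8%) lay near an end of a gene whose start was not located and were left undetermined. The gene-start share was 40.1% among regions found in 9 of 10 libraries. It was 3.78% among the 1506 regions present in all 6 libraries of days 3, 6 and 9 and in no ESC library, called days-only, and 8.45% among the 1325 regions present in all 4 ESC and 2i libraries and no day library, called ESC-only. Constant sites were on every chromosome, and made up between 2.35% of the KLF4 regions of chromosome X and 5.85% of those of chromosome 11. A further constant site lay within 12.5 kb of 684 of them (16.3%), and the median distance to the next was 73698 bp.

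In each list the constant sites ranked high without being the top of it. The percentile of a peak by its deposited −log10 p within its own list, where 100 is the strongest, had a median over constant sites of 82.9 and 76.3 in the day 3 libraries (batches EA-3702 and DG-4040). It was 85.2 and 77.4 at day 6 in the same batches, 79.8 and 82.2 at day 9, 78.0 and 86.1 in ESC (EA-2697 and EA-2643), and 83.2 and 82.2 in 2i (EA-3702 and DG-3012). The pair of ESC libraries alone spanned most of the range of these medians. Just outside the rule, regions in 9 of 10 libraries had medians of 61.2 to 72.0 in the libraries where they were present. The library they lacked was most often the EA-3702 library of 2i (486 regions), the DG-4040 library of day 3 (455) or the EA-2697 library of ESC (446), and least often the EA-2643 library of ESC (20).

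**Figure D2:**
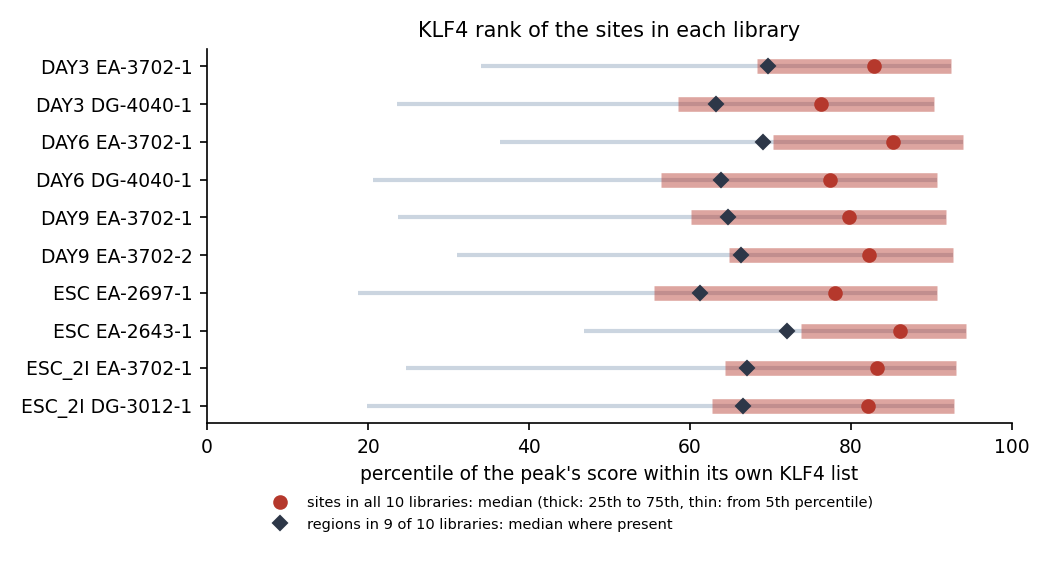
Percentile of the KLF4 score within its own list (horizontal axis) for the constant sites in each KLF4 library (rows). Red points are medians, thick bars the 25th to 75th percentile and thin lines reach down to the 5th percentile of sites; black diamonds are medians of regions found in 9 of 10 libraries, which lie between 61.2 and 72.0, below every red point.

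Presence in all 10 lists did not mean equal rank in all 10 lists, and libraries of one stage differed as well. Only 149 sites (3.56%) stood above the 90th percentile in all 10 lists, 1554 (37.1%) stood above the 50th in all, and 1398 (33.4%) were below the 25th in at least 1 list. The range of a site's percentile over the lists had a median of 53.6 points. As a description, the Spearman correlation of the ranks of the constant sites was 0.389 to 0.856 over the 5 pairs of libraries of one stage, 0.410 to 0.679 over 12 pairs of different days, 0.319 to 0.446 over 4 pairs of a serum and a 2i library, and 0.124 to 0.523 over 24 pairs of a day and an ESC library. Libraries of a pair shared a batch in some cases, and the points share their sites. Distal sites had a median mean percentile of 78.9 and gene-start sites of 74.0.

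The 12 sites of best mean percentile included 4 gene starts and 8 distal sites. The first was at chr11:61619713-61620943 (mm10), 32378 bp from Grap, an adaptor protein gene. Its deposited fold enrichment was 31.1 and 43.5 at day 3, 39.1 and 24.3 at day 6, 19.1 and 22.9 at day 9, 48.29 and 18.01 in ESC and 49.8 and 19.2 in 2i. All 10 values were far above the list medians, which lay between 2.72 and 4.69. H3K27ac peaks lay there in all MEF, day 3, day 9 and ESC libraries and in none of day 6. Folds of different lists depend on depth and are not compared across stages here.

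At Arhgap28 (chr17:68003565-68004845), over the first gene start printed above, the folds were 47.1 and 28.0 at day 3, 48.6 and 51.3 at day 6, 28.6 and 29.4 at day 9, 17.7 and 10.4 in ESC and 23.4 and 16.5 in 2i. Its lowest percentile in any list was 99.8, and the site had an H3K27ac peak in all 12 libraries. The start of Ass1 (chr2:31469554-31470927) had folds from 10.9 to 45.1, and H3K27ac in both MEF, no day 3, 1 of 3 day 6, both day 9 and both ESC libraries. Tubb2a, a beta-tubulin gene (chr13:34077505-34078536), and Klf3, a Kruppel-like factor gene (chr5:64802635-64804373), were the other gene starts, with lowest folds of 12.3 and 7.01 and H3K27ac in all 12 libraries. Distal sites inside Src, the tyrosine kinase gene (32525 bp from its start), inside Akap12, an anchoring protein gene, and 13281 bp from Uspl1 were also acetylated in all 12.

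Other distal sites of the 12 lacked acetylation in some or all libraries. A site inside Camkmt (chr17:85162551-85163595) and a site 1131 bp from the start of Sulf2, a sulfatase gene (chr2:166156814-166157736), had no H3K27ac peak in MEF and a peak in all 10 libraries from day 3 on. At the Sulf2 site the H3K27ac percentile was 95.6, 92.7 and 86.7 at day 3, 88.6, 81.0 and 94.98 at day 6, 98.3 and 98.5 at day 9 and 99.4 and 99.8 in ESC. A site inside Flrt1 and Macrod1 had H3K27ac in 1 of 2 MEF, no day 3, 1 of 3 day 6, both day 9 and both ESC libraries. The site inside Map3k6, a kinase gene (chr4:133250311-133251661), had no H3K27ac peak in any of the 12 libraries, although its KLF4 folds ran from 12.1 to 42.0.

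With the full lists and an overlap of 1 bp, H3K27ac peaks lay at most constant sites at every stage, and at more of them at day 9 and in ESC. The share with a peak was 75.8% and 76.0% in the MEF libraries. At day 3 it was 76.4% and 74.2% in batch DG-3458 and 81.6% in EA-3702, and at day 6 it was 69.6% and 66.6% in DG-3458 and 78.0% in EA-3702. The day 9 libraries had 93.4% and 94.2% and the ESC libraries 91.9% and 91.5%. Every day 9 and ESC library stood above every MEF, day 3 and day 6 library. Stage means were 75.9% ± 0.118 (SD, n = 2) in MEF, 77.4% ± 3.79 and 71.4% ± 5.88 at days 3 and 6 (SD, n = 3 each), 93.8% ± 0.574 (SD, n = 2) at day 9 and 91.7% ± 0.270 (SD, n = 2) in ESC. The stages differed by more than the libraries within them (between-stage F = 16.4; p = 0.00235 by an exact two-sided permutation of stage labels, with 1663200 labelings, and adjusted p = 0.00269 over 8 tests), while pairs of stages were not tested. Without the EA-3702 library of day 6, F was 43.6 (exact permutation test, p = 0.00115). With labels permuted only within batches, p was 0.00423 (exact permutation test over 30240 labelings). In batch DG-3458 alone, with the replicate number as a block, p was 0.0833 (exact permutation test over 576 labelings), past the threshold of 0.05.

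Over all 85740 KLF4 regions the share was 29.1% ± 0.0297 (SD, n = 2) in MEF, 26.0% ± 3.46 and 17.3% ± 3.64 at days 3 and 6 (SD, n = 3 each), 40.2% ± 0.626 and 39.5% ± 0.816 at day 9 and in ESC (SD, n = 2 each). The H3K27ac lists also differed in length, from 88347 peaks in MEF to 17493 at day 6. With the 17493 strongest H3K27ac peaks of each library the share at constant sites was 60.4% ± 0.0169 (SD, n = 2) in MEF, 64.3% ± 4.04 and 69.1% ± 4.11 at days 3 and 6 (SD, n = 3 each), 81.8% ± 0.135 and 69.7% ± 0.0675 at day 9 and in ESC (SD, n = 2 each), so day 6 then stood above MEF. The test held at equal lengths (F = 14.3, exact permutation test, p = 0.00411), and day 9 had the highest share under both countings.

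**Figure D3:**
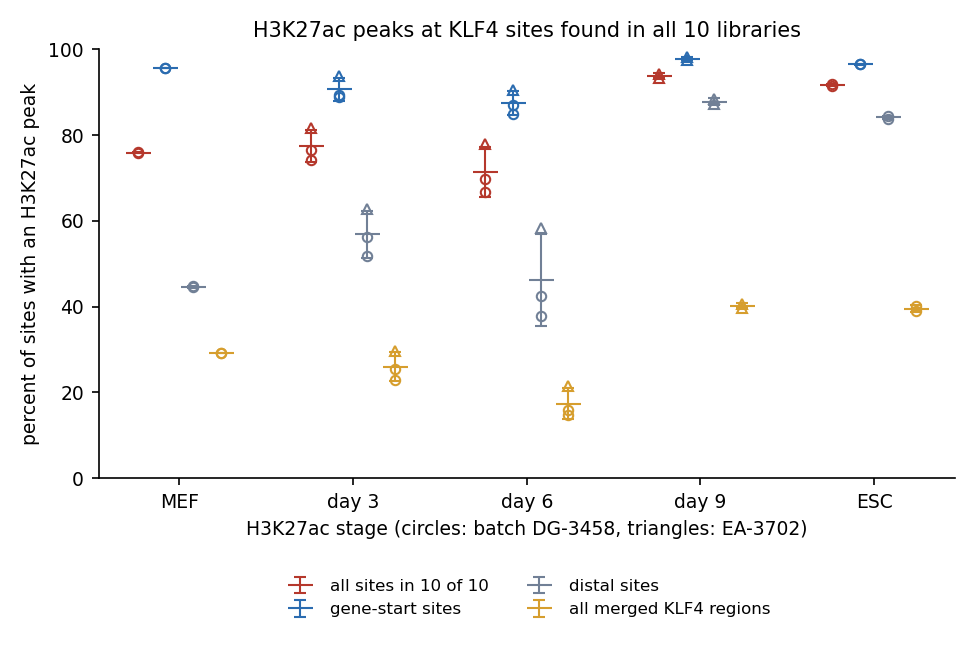
Percent of sites with an H3K27ac peak (vertical axis) in each H3K27ac library by stage (horizontal axis) for all constant sites, their gene-start and distal members, and all merged KLF4 regions. Symbols are libraries (circles batch DG-3458, triangles EA-3702), horizontal marks means and bars SD; distal sites span 37.8% to 88.3% and gene-start sites 84.9% to 98.1%.

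Stages differed most at distal sites, while most gene-start sites were acetylated at every stage. Gene-start constant sites had a peak in 95.6% of cases in both MEF libraries, 90.7% ± 2.68 and 87.4% ± 2.83 at days 3 and 6 (SD, n = 3 each), 97.8% ± 0.397 and 96.5% ± 0.0992 at day 9 and in ESC (SD, n = 2 each). These differences were larger than the spread of libraries (F = 11.1, two-sided exact permutation test, p = 0.00912, adjusted p = 0.00912). F was 18.9 without the EA-3702 library of day 3 and 18.1 without that of day 6 (exact permutation tests, p = 0.00294 and 0.00848). With the 17493 strongest H3K27ac peaks of each library the gene-start share was 82.7% ± 0.198 (SD, n = 2) in MEF and 78.0% ± 0.430 (SD, n = 2) in ESC, so that ESC then stood below MEF. It was 80.6% ± 4.13 on day 3 and 86.0% ± 1.90 on day 6 (SD, n = 3 each) and 91.4% ± 0.364 (SD, n = 2) on day 9, so that day 6 then stood above MEF and ESC. The differences were wider under other countings. An H3K27ac peak covered the middle base of 86.6% ± 0.0992 of gene-start sites in MEF (SD, n = 2), 63.2% ± 10.4 and 58.5% ± 12.4 on days 3 and 6 (SD, n = 3 each), and 90.9% ± 0.0331 and 74.5% ± 2.74 on day 9 and in ESC (SD, n = 2 each; F = 6.35, exact permutation test, p = 0.0265). With the upper 50% of each list the share was 93.9% ± 0.0331 (SD, n = 2) in MEF and 74.8% ± 4.86 (SD, n = 3) on day 6. Distal sites had one in 44.5% and 44.8% of cases in MEF, in 62.7%, 56.2% and 51.8% at day 3, in 42.4%, 37.8% and 58.2% at day 6, in 87.2% and 88.3% at day 9 and in 84.4% and 83.8% in ESC. For them F was 22.4 (two-sided exact permutation test, p = 0.00151, adjusted p = 0.00201). It was 82.2 without the EA-3702 library of day 6 (exact permutation test, p = 0.000173). At equal list lengths the distal share was 25.8% ± 0.133 (SD, n = 2) in MEF, 39.4% ± 3.76 on day 3 and 42.4% ± 7.58 on day 6 (SD, n = 3 each), 67.0% ± 0.309 (SD, n = 2) on day 9 and 56.5% ± 0.707 (SD, n = 2) in ESC, so that day 6 then stood above day 3. The EA-3702 library was the highest at day 3 and at day 6, and day 9 came from that batch alone, so the step from day 6 to day 9 can be read within a batch only there: 58.2% against 87.2% and 88.3%.

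Gene-start minus distal, the difference within a library averaged 31.0 percentage points and was above 0 in 12 of 12 libraries (two-sided exact sign-flip permutation test, p = 0.000488, the smallest it can give, adjusted p = 0.000781). It was 50.9 ± 0.221 (SD, n = 2) in MEF, 33.8 ± 3.06 and 41.3 ± 7.97 at days 3 and 6 (SD, n = 3 each), 10.1 ± 0.399 and 12.4 ± 0.299 at day 9 and in ESC (SD, n = 2 each). With the 17493 strongest peaks of each library it was 24.4 ± 0.673 on day 9 and 21.5 ± 1.14 in ESC (SD, n = 2 each), so that ESC and not day 9 was then the lowest. Within batches the mean was 36.1 points in DG-3458 and 20.8 in EA-3702. Other KLF4 classes showed a gap as well, without a test. In MEF a peak lay at 71.1% ± 1.24 (SD, n = 2) of the 57 gene-start days-only regions and 22.8% of the distal ones. For ESC-only regions these shares were 31.7% ± 1.89 and 8.50% ± 0.0604 (SD, n = 2 each). On day 9 the days-only shares were 94.7% and 86.1% on average, and in ESC the ESC-only shares were 75.9% and 74.9%.

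Where a peak was present, its place in the full H3K27ac list followed the length of that list, and the order of stages did not hold at equal lengths. The median percentile of the H3K27ac peak at constant sites was 92.4 and 92.5 in MEF, 86.9, 87.8 and 85.7 at day 3, 78.7, 74.7 and 78.8 at day 6, 86.3 and 86.6 at day 9 and 91.1 and 91.2 in ESC. The 3 libraries of day 6 had the lowest values (F = 47.8, two-sided exact permutation test, p = 5.05e-05, adjusted p = 0.000404). Day 6 was also the lowest over all KLF4 regions, where no test was run and the stage means were 86.4 in MEF, 77.9 and 68.1 for days 3 and 6, 72.1 for day 9 and 82.4 in ESC. The lists were longest in MEF and shortest at day 6. When percentiles were ranked again among the 17493 strongest peaks of each library, a comparison added after seeing the data, the means at constant sites were 73.4 ± 0.568 (SD, n = 2) in MEF, 73.5 ± 1.39 and 74.6 ± 0.132 for days 3 and 6 (SD, n = 3 each), and 71.2 ± 0.0667 and 73.5 ± 0.187 for day 9 and ESC (SD, n = 2 each). Day 6 was then the highest and day 9 the lowest (F = 5.77, exact permutation test, p = 0.0349). Over all KLF4 regions, where no test was run, day 6 was likewise the highest at 66.4 and day 9 the lowest at 58.1. In the full lists the library titled DG-3458-2 of day 6 was the lowest, and without it F was 150.2 (exact permutation test, p = 0.000404). The peak names inside the pair of DG-3458 lists of day 6 carry 1 and 2 the other way round from the titles, so which of them this is remains uncertain.

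The order of the stages depended on whether a whole site or its middle was looked up. When only the middle base of each site was looked up, a comparison added after seeing the data, an H3K27ac peak covered it in 67.6% ± 0.152 of constant sites in MEF (SD, n = 2), 50.4% ± 10.4 and 44.0% ± 11.4 at days 3 and 6 (SD, n = 3 each), 84.8% ± 0.169 and 66.0% ± 3.05 at day 9 and in ESC (SD, n = 2 each). ESC then stood slightly below MEF, the reverse of the order for whole sites, while stages still differed (F = 8.86, exact permutation test, p = 0.00687). At distal sites the middle was covered in 37.6% ± 0.707 of cases in MEF (SD, n = 2) and 52.1% ± 3.62 (SD, n = 2) in ESC. It was covered in 30.3% ± 9.86 of distal sites on day 3 and 20.5% ± 9.67 on day 6 (SD, n = 3 each), both below MEF, and in 74.8% ± 0.221 (SD, n = 2) on day 9. The H3K27ac peaks of ESC, with medians of 490 and 474 bp, were narrower than those of day 9, with 763 and 735 bp, and the part of peak width was not tested.

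Compared with KLF4 sites of limited duration, constant sites were acetylated more often in each library. In MEF, before the cassette was induced, 75.9% of constant sites had an H3K27ac peak against 25.1% ± 0.0939 (SD, n = 2) of the days-only class and 10.8% ± 0.160 (SD, n = 2) of the ESC-only class. At day 3 the shares of days-only and ESC-only regions were 55.8% ± 7.41 and 5.74% ± 1.52, and at day 6 they were 32.6% ± 15.9 and 2.26% ± 0.857 (SD, n = 3). At day 9 they were 86.6% ± 0.516 and 14.8% ± 1.65, and in ESC 13.6% ± 0.516 and 74.7% ± 1.28 (SD, n = 2). Constant sites exceeded days-only regions in 12 of 12 libraries by a mean of 37.8 points and ESC-only regions in 12 of 12 by 62.1 points (two-sided exact sign-flip permutation tests, p = 0.000488 each, adjusted p = 0.000781). The lead over days-only regions was 7.24 ± 0.0572 points at day 9 and 78.1 ± 0.786 (SD, n = 2) in ESC, and the lead over ESC-only regions was 79.0 ± 1.08 and 17.0 ± 1.01 at day 9 and in ESC (SD, n = 2 each). Both classes were chosen by the stages of their KLF4 peaks, so how the leads vary with stage cannot be separated from that choice. The small lead over days-only regions on day 9 depended on the H3K27ac peaks used, since it was 26.4 ± 1.45 points with the 17493 strongest peaks of each library, 18.6 ± 0.271 with the upper 50% of each list and 18.9 ± 1.34 with the middle base (SD, n = 2 each). Day 3 stood at 28.2 ± 1.45 (SD, n = 3) with the 17493 strongest peaks. Within batches the lead over days-only regions was 49.2 points in DG-3458 and 15.0 in EA-3702, and that over ESC-only regions was 54.6 and 76.9.

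**Figure D4:**
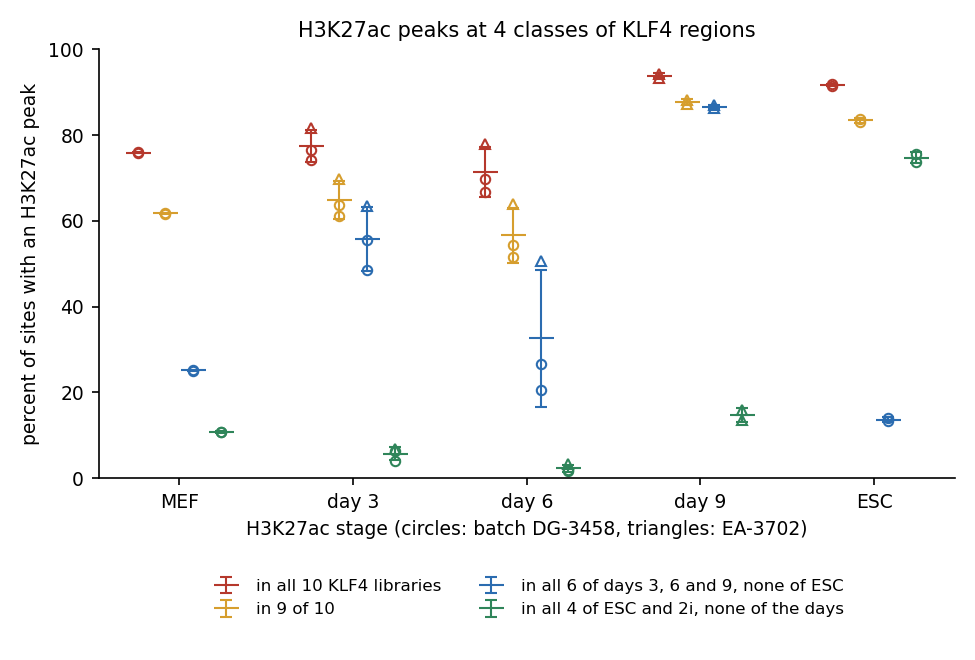
Percent of KLF4 regions with an H3K27ac peak (vertical axis) by stage (horizontal axis) for constant sites, regions in 9 of 10 KLF4 libraries, days-only and ESC-only regions. Symbols are libraries (circles batch DG-3458, triangles EA-3702), horizontal marks means and bars SD; constant sites lie above the other classes in each of the 12 libraries.

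Constant sites held more gene starts than these classes, so the comparison was repeated among distal sites. The lead over days-only regions then averaged 20.1 points (exact sign-flip permutation test, p = 0.000977) and was small at day 3 and day 9. It was 21.8 ± 0.221 (SD, n = 2) in MEF, 1.798 ± 2.12 and 15.2 ± 5.53 at days 3 and 6 (SD, n = 3 each), 1.65 ± 0.302 and 71.9 ± 1.09 at day 9 and in ESC (SD, n = 2 each), with 1 day 3 library at -0.162. The lead of distal constant sites over distal ESC-only regions averaged 44.7 points (exact sign-flip permutation test, p = 0.000488). It ran from 9.24 ± 0.870 in ESC, where it was 17.0 without this restriction, to 76.1 ± 0.775 on day 9 (SD, n = 2 each).

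Regions just outside the rule were acetylated less. For those in 9 of 10 KLF4 libraries the H3K27ac share was 61.7% ± 0.140 (SD, n = 2) in MEF, 64.8% ± 4.41 and 56.6% ± 6.40 at days 3 and 6 (SD, n = 3 each), 87.7% ± 0.785 and 83.4% ± 0.505 at day 9 and in ESC (SD, n = 2 each). Constant sites exceeded them in 12 of 12 libraries by a mean of 11.6 points (two-sided exact sign-flip permutation test, p = 0.000488, adjusted p = 0.000781). The difference ran from 5.94 to 15.2 points and was 9.91 among distal sites. With the middle base in place of the whole region it was 11.9 points, and within batches it was 12.6 in DG-3458 and 9.54 in EA-3702.

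Over single sites, acetylation in every library was common at gene starts and less so elsewhere. An H3K27ac peak in all 12 libraries was found at 2286 constant sites (54.5%), against 10.1% of all KLF4 regions, and at 1639 gene-start (76.6%) and 318 distal sites (19.9%). Peaks were absent from all 12 libraries at 81 sites (1.93%), against 35% of all regions, and 73 of these were distal. All libraries of MEF had a peak at 3132 sites, or 74.7% (27.3% of all regions), all of day 3 at 2982, or 71.2% (20.1%), and all of day 6 at 2624, or 62.6% (12.6%). All libraries of day 9 had a peak at 3876 sites, or 92.5% (36.5% of all regions), and all of ESC at 3767, or 89.9% (35.8%).

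**Figure D5:**
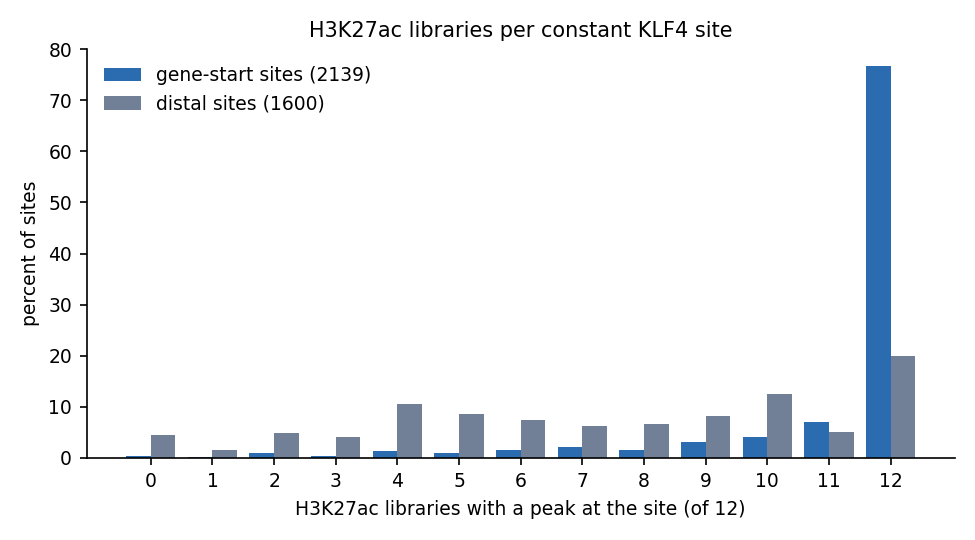
Percent of constant sites (vertical axis) by the number of H3K27ac libraries, of 12, with a peak at the site (horizontal axis), for gene-start and distal sites. The bar at 12 libraries holds 76.6% of gene-start and 19.9% of distal sites, and distal sites spread over all numbers.

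With the full lists and an overlap of 1 bp, more constant sites had H3K27ac in ESC and not in MEF than the reverse. At 666 constant sites (15.9%, against 6.47% of all regions) both day 9 and both ESC libraries had a peak and neither MEF library did, and 593 of these were distal, which is 37.1% of distal constant sites. A pattern of loss, both MEF libraries and no ESC library, held at 84 sites (2.00%, against 7.38% of all regions). It is not the exact converse, since it sets no condition on day 9. These patterns were not counted under other settings, and the shares behind them moved. With the middle base 67.6% of constant sites were covered in MEF and 66.0% in ESC, and with the 17493 strongest peaks the gene-start share was 82.7% in MEF and 78.0% in ESC. Over all constant sites those strongest peaks covered 60.4% in MEF and 69.7% in ESC. Sites of the gained pattern had a median mean KLF4 percentile of 80.9, sites acetylated in every library 75.6, sites of the lost pattern 71.5 and sites acetylated in no library 70.7. Their 5th to 95th percentiles overlap widely, from 56.3 to 97.0 for the gained and from 49.7 to 96.4 for the never acetylated.

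The best-ranked gained sites after those of Sulf2 and Camkmt included the start of Prph (chr15:99055423-99056955), which codes for the neuronal intermediate filament peripherin. Its H3K27ac peaks were in no MEF or day 3 library, 2 of 3 day 6, both day 9 and both ESC libraries, with percentiles from 18.2 to 77.0. Among the lost sites, the best ranked lay 236186 bp from A1bg, 21793 bp from Kctd15 and 15294 bp from Gpr132. The Kctd15 site (chr7:34629722-34631139) kept H3K27ac in all MEF, day 3, day 6 and day 9 libraries and had none in ESC, while its KLF4 folds in ESC were 7.54 and 6.39. Beside the Map3k6 site, the best-ranked sites with no H3K27ac peak in any library were near Lrrc26, inside the glutamate receptor gene Grin1 (chr2:25292151-25293467, folds 13.8 to 47.0), and near Rsbn1, inside the phosphatase gene Ptpn22 (chr3:103904439-103905219, folds 8.27 to 29.2).

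A constant site lay within 1 kb of 2844 of 21627 protein-coding genes (13.2%), and any KLF4 region within 1 kb of 58.6%. For comparison with these shares, 13 lists of genes were counted. Distances are to the start, or to either end of the gene where no start was located. The lists describe these sites and carry no test. For the counts of sites acetylated in every library, the share was 54.5% over all constant sites and 76.6% over those at gene starts.

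Genes of the Kruppel-like and SP family, to which KLF4 itself belongs, had a constant site in 12 of 18 cases (66.7%). With the best site of each gene, all 12 were acetylated in every H3K27ac library, and their median mean percentile was 89.2. The best ranked were Klf3, Klf13, Sp3 and Klf16, with mean percentiles of 99.8, 97.5, 93.3 and 91.4. Klf2, Klf6, Klf7, Klf12, Klf15 and Sp5 had none; Klf2 had a region with peaks in 7 libraries. The start of Klf4 was itself a constant site (chr4:55531102-55533395), with folds of 12.03 and 5.32 at day 3, 13.2 and 5.12 at day 6, 5.77 and 7.04 at day 9, 6.55 and 4.19 in ESC and 7.21 and 7.61 in 2i. Klf4 was picked for mention after its values were seen. The cassette holds a Klf4 coding sequence, and its part in these values was not tested.

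Pluripotency regulators had a constant site in 3 of 24 cases (12.5%), near the 13.2% of all genes, and 22 of 24 had some KLF4 region. The 3 were Rif1, a telomere and replication-timing factor, Zfp42 and Mybl2, a cell-cycle factor of the MYB family. The sites of Rif1 and Mybl2 had H3K27ac in all 12 libraries, MEF included. At Zfp42 (chr8:43306771-43307472) the KLF4 folds were 8.27 and 5.06 at day 3, 12.5 and 8.85 at day 6, 10.4 and 7.30 at day 9, 7.37 and 9.16 in ESC and 21.3 and 5.16 in 2i. H3K27ac was absent there from MEF, day 3 and day 6, present in both day 9 libraries at percentiles 39.4 and 38.8, and present in both ESC libraries at 97.0 and 97.0. The core factors Nanog and Pou5f1 had regions with peaks in at most 8 of 10 libraries, Sox2 in 7, and Esrrb had no region within 1 kb.

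Epithelial genes had a constant site in 9 of 26 cases (34.6%) and mesenchymal genes in 2 of 26 (7.69%). Of the 9 epithelial sites 3 were acetylated in every library. Cldn3 (chr5:134985522-134986464) and Esrp1, an epithelial splicing regulator, had no H3K27ac peak in MEF, day 3 or day 6. Cldn3 had it in both day 9 libraries at percentiles 84.4 and 79.3 and in both ESC libraries at 40.3 and 75.1, and its KLF4 folds were 6.93 and 3.99 at day 3 and 10.8 and 10.8 at day 6. Krt8, a keratin gene, had H3K27ac in 1 of 2 MEF, 2 of 3 day 3, no day 6 and all day 9 and ESC libraries. Epcam, an adhesion gene picked after its values were seen, had it in no MEF or day 3 library and in all libraries of day 6, day 9 and ESC.

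The mesenchymal genes with a constant site were Vim, the fibroblast intermediate filament vimentin, and Col1a1, a fibrillar collagen. Vim was acetylated in all 12 libraries, with H3K27ac percentiles of 98.6 and 98.5 in MEF and 66.5 and 73.3 in ESC. At the Col1a1 site (chr11:94936765-94937488), 541 bp from the nearest located end of the gene, H3K27ac was present in both MEF and all 3 day 3 libraries and in none of day 6, day 9 or ESC. In the count of fibroblast markers, which took any peak within 1 kb of a located end of the gene, Col1a1 had an H3K27ac peak in all 12 libraries, so the absence holds for this site and not for the gene. KLF4 was present at the site, with folds of 8.61 and 7.19 at day 3, 7.64 and 6.10 at day 6, 6.28 and 5.57 at day 9, 6.20 and 3.71 in ESC and 2.73 and 3.49 in 2i. The OKSM cassette was placed at this locus, and its part in these values was not tested.

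Genes of the actin cytoskeleton had the highest share of all lists, at 16 of 19 (84.2%), and 15 of the 16 sites were acetylated in every library. The best ranked were Actb, the cytoplasmic actin (mean percentile 98.2), Tln1, which links integrins to actin (91.1), Actn4, an actin cross-linker (90.5), and Cfl1, an actin-severing protein (88.1). Cell-cycle and p53 genes had a site in 12 of 22 cases (54.5%), 9 of them acetylated throughout. Rb1, the retinoblastoma gene, and Cdkn1a, the p21 inhibitor that p53 and KLF4 are known to regulate, had mean percentiles of 90.3 and 87.8. Cdkn1c, a related inhibitor (90.1), had H3K27ac in both ESC libraries and in none of the 10 others. Trp53, which codes for p53, stood at 83.0 and had H3K27ac in all 12.

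Glycolytic genes had a constant site in 7 of 15 cases (46.7%), led by Eno1 and Pkm, for enolase and pyruvate kinase, at mean percentiles of 74.7 and 73.5, and Hippo pathway genes in 5 of 12 (41.7%), led by the TEAD factor gene Tead2 at 92.0. Wnt pathway genes had one in 5 of 12 (41.7%), among them Tcf7l2 and Tcf7l1, which code for nuclear partners of beta-catenin, and Ctnnb1 for beta-catenin itself. Immediate-early and AP-1 genes had one in 6 of 15 (40%), all 6 acetylated in every library and led by Jund, an AP-1 subunit, at 97.9. Genes of the LIF, TGF-beta and FGF pathways had one in 8 of 20 (40%), led by Spry4, an inhibitor of FGF signalling, at 95.2, with Smad6, an inhibitory SMAD, at 90.5, and Socs3, a feedback inhibitor of LIF signalling, at 67.7. Chromatin regulators had one in 5 of 20 (25%), led by Kdm2b, a histone demethylase that binds CpG islands, at 90.4. Ribosomal protein genes had one in 9 of 77 (11.7%), near the 13.2% of all genes, and 71 of the 77 had some KLF4 region.

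Hairpins of microRNAs had a constant site within 1 kb in 37 of 1005 cases (3.68%), and any KLF4 region in 20.3%. These hairpins lay near 34 sites, of which 22 were acetylated in every library, where 54.5% of all constant sites and 76.6% of those at gene starts were. Mir22 and the Mir191 and Mir425 pair were near sites with H3K27ac in all 12 libraries and mean KLF4 percentiles of 93.8 and 89.0. Near Mir149 the site had a mean percentile of 96.4 and no H3K27ac peak in any library, and near Mir210, a microRNA of the hypoxia response, it had 86.9 and peaks in 5. They were picked for mention after their values were seen.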

How the data were processed

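ChIP-seq libraries of KLF4 (10) and H3K27ac (12) were analysed, and the 13 input libraries were not used here. The authors deposited 1 peak list per library, each with 10 columns and no header, so peaks had been called per sample. Per the submitters' processing notes the build was mm10 and the tools included cutadapt 1.8.1, Bowtie2 2.2.5, deepTools 2.3.6 and MACS2 2.1.1; their settings and the control used are not given in the sources used here. For each peak the authors deposited its fold enrichment as a ratio, a score, and −log10 of its p-value and q-value. The lowest deposited −log10 p of a list lay between 2.00 and 2.09. They are the authors' own and served here for ranks, filters and descriptions inside 1 list. The series' design text calls the libraries biological replicates, and no label says that they came from separate cultures, so p-values measure the spread between these libraries.

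Peaks on chromosomes 1 to 19 and X were merged, and an overlap of 1 bp counted. Gene starts and promoter sequences came from RefSeq tables of GRCm38.p6, which located a start for 17273 of 21627 protein-coding genes (79.9%). Tests used 1 value per library: exact permutation of stage labels with the between-stage F, or exact sign flips of within-library differences, with Benjamini-Hochberg adjustment over 8 tests and 0.05 as the threshold. Named sites were the 12 of best mean KLF4 percentile, up to 4 per gene list, and 3 per acetylation pattern. Members, lists and tests were chosen with earlier results of these data known. Code was tested on simulated lists and written in Python 3.11.15 with numpy 2.4.6, pandas 2.3.3 and scipy 1.17.1. Alternatives changed the peaks, the overlap, the gene-start window, the batch and the libraries used.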

Additional observations from a re-analysis of the deposited data

Results flagged for a closer look

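The size of 4 differences in H3K27ac share varied between stages by more than between libraries. This was tested after the data were seen, and p-values are adjusted over these 4 tests. Days-only and ESC-only regions were chosen by the stages of their KLF4 peaks. For those classes the tests cannot separate variation with stage from that choice. For gene-start minus distal constant sites the between-stage F of the difference was 32.4 (exact two-sided test by permutation of 1663200 labelings: p = 0.000476, adjusted p = 0.000635), with 50.9 points in MEF, 10.1 at day 9 and 12.4 in ESC. With the 17493 strongest peaks of each library day 9 stood at 24.4 and ESC was the lowest at 21.5, and with the upper 50% of each list they stood at 19.2 and 16.7. For constant minus days-only regions it was 47.7 (exact permutation test, p = 7.94e-05, adjusted p = 0.000159), with 78.1 points in ESC and 7.24 at day 9. The day 9 value was 26.4 with the 17493 strongest peaks, where day 3 had 28.2, and 18.6 with the upper 50%. For constant minus ESC-only regions it was 131.9 (exact permutation test, p = 0.00176, adjusted p = 0.00176), with 17.0 points in ESC and 65.1 to 79.0 on average at the other stages. For constant sites minus regions in 9 of 10 libraries it was 143.8 (exact permutation test, p = 2.89e-05, adjusted p = 0.000115), with 6.09 points at day 9, 8.30 in ESC and 12.6 to 14.8 at the other stages. Among the 17493 strongest peaks ESC had 14.2, within the 13.7 to 15.0 of MEF and days 3 and 6, and day 9 had 10.5. The tests of these differences between stages were not run under other settings. Day 9 came from batch EA-3702 alone and MEF and ESC from DG-3458 alone, so day 9 cannot be set against MEF or ESC within a batch. MEF and ESC share DG-3458 with 2 libraries each of days 3 and 6, and day 9 shares EA-3702 with 1 library each.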

How the results depend on the processing

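Of 167 alternatives of the 8 H3K27ac tests, judged on unadjusted p, 162 kept side of the threshold, and every mean difference kept its sign. For the 4 within-library differences all 12 libraries were above 0. Leaving out 1 library could then only give p = 0.000977 (exact sign-flip permutation test). Those alternatives could not change side or sign, so they add nothing to the count. F carries no order of stages: percentiles ranked again among 17493 peaks per library gave F = 5.77 (exact permutation test, p = 0.0349) with day 6 highest, and 47.8 with day 6 lowest in the full lists. In batch EA-3702 alone (4 libraries) the differences were 20.8 points for gene-start minus distal, 15.0 for constant minus days-only, 76.9 for constant minus ESC-only and 9.54 for constant minus 9 of 10 (exact sign-flip permutation tests, p = 0.125 each, the smallest that 16 sign flips can give). With the replicate number of batch DG-3458 as a replicate block, F was 108.5 for the share of all constant sites (exact permutation test over 576 labelings, p = 0.0833), and 39.6 for rank, 87.1 for gene-start and 149.1 for distal sites (p = 0.0417 each, the smallest possible). These numbers are those of the titles, which the peak names of day 6 exchange. The numbers did not pair the libraries, since correlations of same-numbered deviations ran from -0.0231 to 0.0299. Leaving out 1 H3K27ac library gave F from 11.1 to 43.6 for the share, 35.8 to 150.2 for rank, 7.76 to 18.9 for gene-start and 15.3 to 82.2 for distal sites, and differences from 29.2 to 32.9, 34.1 to 40.6, 60.5 to 66.2 and 11.3 to 12.1 points in the order above. The number of constant sites was 1551 with the top 50% of each KLF4 list and 1636 with q at most 0.01, where fewer peaks enter, 3040 with 21129 peaks per list, 5665 without 2i, and 4207 to 4672 without 1 KLF4 library. The H3K27ac tests were repeated on the 3704 sites with a shared stretch. They were not repeated on the sites of these other KLF4 lists. Read depth is unknown, so a missing peak does not show missing signal. The middle-base and re-ranked alternatives and the tests of differences between stages were chosen after seeing the data.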
